A study of Mus musculus with 8 samples.

Results

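The collagen genes measured in the mouse cochlea are described here, from knockout mice labelled miR-183/96 KO and control mice. Members were the array features that the platform annotation links to exactly 1 gene symbol of the form Col, a number, the letter a and a number. They comprised 44 genes of 22180 and 47 features of 23521, and a gene with several features was represented by the brightest of them, averaged over the 8 arrays. Each array holds RNA of 1 animal at postnatal day 16, with 4 knockout and 4 control animals, and both of its cochleae, taken whole with their bony capsule, were combined. The controls are called control in the sample labels and wild type in the description of the series. Strain, sex and the design of the deleted allele, not given in the sources used here, are therefore left out. Values are RMA expression values on the log2 scale, so a difference of 1 is a doubling, and every difference is knockout minus control with the standard error (SE) of the limma fit.

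Collagens are trimers of chains that wind into a triple helix. Fibrillar collagens build the tensile fibres of bone, cartilage and connective tissue. Fibril-associated collagens sit on the surface of those fibres, and network collagens form basement membranes and the sheet around growing cartilage. In the cochlea, types II, IX and XI build the collagen fibrils of the tectorial membrane, which lies over the hair cells, and of cartilage. Type IV forms the basement membranes of strial vessels, and type I is the main protein of the bone around the organ.

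The microRNAs named in the knockout act through their seed, bases 2 to 8 of the mature strand, shown in capitals, which pairs with target transcripts. Their sequences are shown because the knockout is labelled as lacking them (RefSeq, GRCm38.p6, chromosome 6).
miR-96-5p: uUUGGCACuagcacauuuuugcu
miR-183-5p: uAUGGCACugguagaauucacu
Whether collagen transcripts hold sites for these seeds was not analysed here. The array feature of Mir96 read 5.69 ± 0.40 in control and 4.21 ± 0.13 in knockout animals (mean ± SD of 4 each, limma adjusted p = 0.00932), with no overlap of the groups. The features of Mir183 (-0.33) and Mir182 (0.35) did not pass. Both were dim, with means of 2.41 and 3.75 over the 8 arrays, at percentiles 3.5 and 12.6 of all features. At such levels they cannot tell whether RNA was lost. Of the genes that mark the tissue, the cochlin gene Coch read 9.99 to 10.62 in knockout and 10.58 to 10.75 in control animals. Correlations between arrays over the tested features ran from 0.961 to 0.984.

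None of the 44 collagen genes passed an adjusted p of 0.05, against 3 features, 0.0128% of the 23521 tested. At an unadjusted p under 0.05 there were 6 collagen genes, all lower in knockout cochlea: Col1a1, Col12a1, Col1a2, Col3a1, Col22a1 and Col5a2. They are 13.6% of the 44, and the share over all features tested was 14.3%, so the count is near the background. In the lower direction alone the share over all features was 7.25%, and in the higher direction, where no collagen gene stood, it was 7.04%. The split of 6 lower and 0 higher became 3 lower and 2 higher after cyclic loess normalization, which evens out differences that follow the signal level. At that setting 5.73% of all features were lower and 4.42% higher, so these counts too are near the background. The median difference of the 44 genes was -0.015, with 23 below and 21 above 0, and the median over all features was 0.014. Groups did not overlap for 3 collagen genes, each lower in knockout cochlea, which is 6.82% of them against 5.96% of all features, or 2.65% in the lower direction and 3.3% in the higher.

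**Figure D1:**
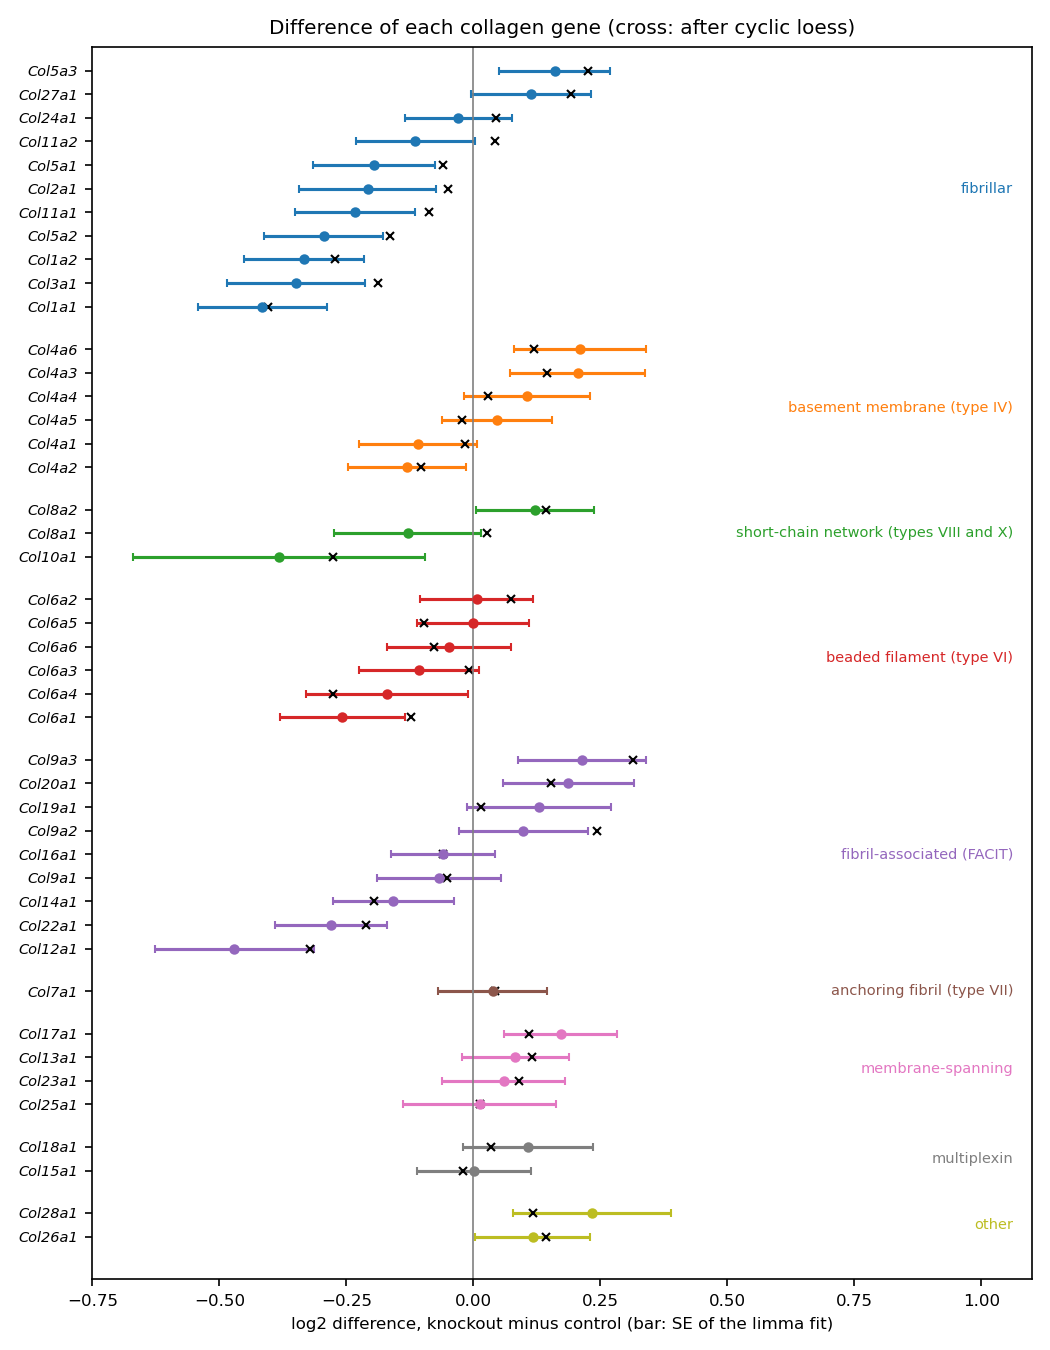
Log2 difference (knockout minus control, 4 arrays each) of the 44 collagen genes by class, with each bar 1 SE of the limma fit to either side and each cross the difference after cyclic loess. Values run from -0.47 for Col12a1 to 0.23 for Col28a1, and 9 of 11 fibrillar genes lie below 0.

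Type I collagen, the fibre of bone, is made of chains encoded by Col1a1 and Col1a2. Col1a1 read 11.60, 11.37, 11.39 and 11.30 in knockout replicates 1 to 4 and 12.06, 11.93, 11.73 and 11.61 in control replicates 1 to 4. Its highest knockout value lay just under its lowest control value, and the means were 11.42 ± 0.13 and 11.83 ± 0.20 (SD, n = 4). The difference was -0.42 (SE 0.13), or 1.33-fold lower, with a 95% interval of -0.69 to -0.14 and a limma adjusted p of 0.301. Col1a2 read 10.50, 10.43, 10.34 and 10.17 in knockout and 10.83, 10.83, 10.59 and 10.53 in control animals. These groups did not overlap either, and the difference was -0.33 (SE 0.12, 95% interval -0.59 to -0.0797; limma adjusted p = 0.303). The gap between its groups was narrow, and Col1a2 was no longer under an unadjusted p of 0.05 without knockout replicate 4, the animal with the lowest value (-0.27), or without control replicate 1 (-0.29).

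Col1a2 has a second feature, and the pair disagreed. The second feature, 17548532, read 8.81, 8.54, 8.40 and 8.66 in knockout and 8.75, 8.83, 8.58 and 8.46 in control animals, with overlapping groups and a difference of -0.051 (SE 0.12, 95% interval -0.31 to 0.21). The value of the first feature minus that of the second was 1.76 ± 0.19 in knockout and 2.04 ± 0.04 in control animals (mean ± SD, n = 4 each). This gap was narrower in all 4 knockout animals (two-sided exact permutation p = 0.0286, the smallest that 4 against 4 can give; adjusted p = 0.0857 over the 3 genes with a pair of features). With both features averaged, Col1a2 differed by -0.19 and was not under an unadjusted p of 0.05. The transcript parts that the features cover were not analysed here.

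Type III and type V collagens form mixed fibrils with type I in soft connective tissue. Col3a1, the single chain of type III, read 7.52, 7.997, 7.64 and 7.85 in knockout and 7.98, 8.35, 8.20 and 7.86 in control animals. Knockout replicate 2 lay above control replicates 1 and 4, so the groups overlapped, and the difference was -0.35 (SE 0.14, 95% interval -0.64 to -0.058; limma adjusted p = 0.306). Col5a2, a chain of type V, which limits fibril width, read 7.01, 6.94, 6.78 and 6.79 in knockout and 7.14, 7.37, 6.93 and 7.26 in control animals. Control replicate 3 fell inside the knockout range, and the difference was -0.29 (SE 0.12, 95% interval -0.55 to -0.042; limma adjusted p = 0.308). Both genes are neighbours on chromosome 1 in the RefSeq table. After cyclic loess Col3a1 stood at -0.19 and Col5a2 at -0.16, neither under an unadjusted p of 0.05. Leaving out knockout replicate 1 or 3 or control replicate 2 also took Col3a1 above it, and knockout replicate 3 or 4 or control replicate 2 or 4 took Col5a2 above it.

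The other type V chains lay on both sides of 0. Col5a1 differed by -0.20 (95% interval -0.45 to 0.063), and Col5a3 by 0.16 (-0.076 to 0.40). The second feature of Col5a1, 17383350, differed by 0.21, from 5.60, 5.01, 5.49 and 5.14 in control to 5.63, 5.09, 5.81 and 5.53 in knockout animals, again with overlap. The main feature of Col5a1 read 7.23, 7.43, 7.10 and 7.02 in control and 6.79, 7.07, 7.13 and 7.002 in knockout animals. The gap between its features changed by -0.40 (two-sided exact permutation p = 0.171, adjusted p = 0.171).

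**Figure D2:**
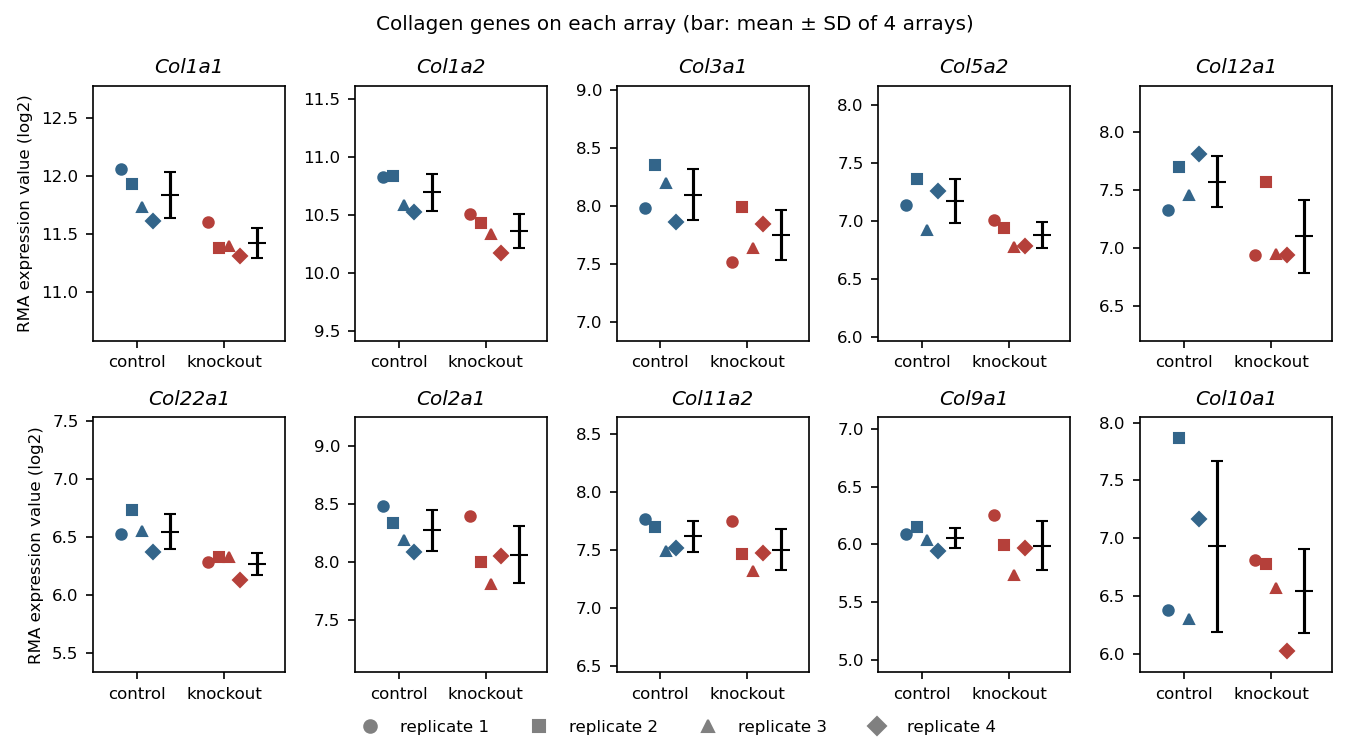
RMA expression value (log2) of 10 collagen genes on each array, control in blue and knockout in red, with 1 symbol per replicate number and the mean ± SD of 4 arrays beside the points; every panel spans the same height on the log2 scale. Knockout and control points do not overlap for Col1a1, Col1a2 and Col22a1, and Col10a1 has the widest spread, 6.31 to 7.86 in control animals.

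The collagens of cartilage and the tectorial membrane, types II, IX and XI, lay on both sides of 0. Of their 6 genes, 4 were below 0 and 2 above, with a median of -0.091, and none reached an unadjusted p of 0.05. Col2a1, the only chain of type II, read 8.40, 8.002, 7.81 and 8.05 in knockout and 8.49, 8.33, 8.19 and 8.08 in control animals. Knockout replicate 1 lay above 3 of the 4 controls and the other 3 knockout animals below every control, and the difference was -0.21 (SE 0.13, 95% interval -0.50 to 0.082). Col11a2, a chain of type XI known for a form of hereditary deafness, read 7.75, 7.47, 7.32 and 7.48 in knockout and 7.77, 7.70, 7.49 and 7.52 in control animals. Here too knockout replicate 1 stood among the controls and the other 3 knockout animals below them, with a difference of -0.11 (95% interval -0.37 to 0.14). Col11a1, the other type XI chain measured, read 8.79, 8.66, 8.34 and 8.43 in knockout and 8.66, 8.89, 8.73 and 8.86 in control animals and differed by -0.23 (95% interval -0.49 to 0.021).

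Type IX collagen coats type II fibrils. Col9a1 read 6.26, 5.997, 5.73 and 5.97 in knockout and 6.09, 6.15, 6.04 and 5.94 in control animals, and the control values all lay inside the knockout range (difference -0.067, 95% interval -0.33 to 0.20). Col9a2 differed by 0.099 and Col9a3 by 0.21 (-0.056 to 0.48). Col9a3 read 6.97, 6.63, 6.57 and 6.999 in knockout and 6.74, 6.47, 6.63 and 6.48 in control animals, with knockout replicates 1 and 4 above every control. After cyclic loess Col9a3 stood at 0.31 (limma adjusted p = 0.476) and Col5a3 at 0.23 (adjusted p = 0.485), the 2 higher collagen genes at that setting.

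Knockout animals differed from each other in these genes. All 6 read higher in knockout replicate 1 than in knockout replicate 3, and the mean of the 6 was 7.60 in the former, the highest of the 8 animals, and 7.17 in the latter, the lowest. The controls lay between, at 7.32 to 7.51. Without knockout replicate 1, Col2a1 differed by -0.32 and Col11a1 by -0.31, both then under an unadjusted p of 0.05 (limma adjusted p = 0.401 and 0.400). Chondrocyte markers beside them, 10 of 10 measured, had 5 members below and 5 above 0 and a mean level of 5.98 to 6.04 in knockout and 5.91 to 6.19 in control animals. At an unadjusted p under 0.05 were Matn1 (0.33), Hapln1 (-0.36) and Acan (-0.33), the aggrecan gene, and the cartilage regulator Sox9 stood at -0.20. Those under that p are 30% of the 10 markers, and the share over all features was 14.3%. The part of chondrocyte content in the collagen values was not tested.

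The remaining fibrillar genes were Col24a1 (-0.029) and Col27a1 (0.11), of bone and cartilage. Both had overlapping groups.

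Among the fibril-associated collagens, Col12a1 and Col22a1 stood lowest. Col12a1, found along type I fibres of dense connective tissue and bone, read 6.94, 7.57, 6.95 and 6.94 in knockout and 7.32, 7.69, 7.45 and 7.81 in control animals. In knockout replicates 1, 3 and 4 it lay within a narrow band below every control, and in knockout replicate 2 it lay inside the control range. The difference was -0.47 (SE 0.16, 95% interval -0.81 to -0.13; limma adjusted p = 0.301), and it was -0.63 without that animal (adjusted p = 0.136).

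Col22a1 belongs to the junctions between muscle and tendon. It read 6.29, 6.33, 6.32 and 6.13 in knockout and 6.53, 6.74, 6.56 and 6.37 in control animals, with no overlap (difference -0.28, SE 0.11, 95% interval -0.52 to -0.043; limma adjusted p = 0.308). Its highest value was in control replicate 2, which held the highest value for 14 collagen genes. That animal also had the highest mean of the skeletal muscle markers, 8.54. The marker means were 5.52, 6.76, 6.35 and 6.56 in knockout and 6.57, 8.54, 6.99 and 6.52 in control animals. Control animals had the same order in both measures. Among knockout animals, replicate 4 had the lowest Col22a1 and replicate 1 the lowest marker mean. Knockout replicates 2 and 4 exceeded control replicate 4 in marker mean but not in Col22a1. Those markers ranged over 5.52 to 6.76 in knockout and 6.52 to 8.54 in control animals, 12 of 12 were measured and all 12 were below 0, from -1.67 for the myosin gene Myh4, with Actn3 at -0.90, Mylpf at -1.30 and Tnnt3 at -1.20. Without control replicate 2, Col22a1 differed by -0.22 and was no longer under an unadjusted p of 0.05, and without knockout replicate 4 it was above it too (-0.23). The part of muscle RNA in this value was not tested.

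The other fibril-associated genes had overlapping groups. Col14a1, of dense connective tissue, differed by -0.16, Col16a1 by -0.0596, Col19a1 by 0.13 and Col20a1 by 0.19. Col16a1 was the steadiest of the 44 genes within groups, with a pooled SD of 0.0767.

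Basement membrane collagen, type IV, is encoded by 3 pairs of neighbouring genes. Col4a1 and Col4a2, the chains of most vessels, differed by -0.11 (95% interval -0.36 to 0.14) and -0.13 (-0.38 to 0.12). Col4a3 and Col4a4, whose loss causes hearing loss with kidney disease in Alport syndrome, differed by 0.21 and 0.11. Col4a5, the third chain of that trimer, differed by 0.046, and its neighbour Col4a6 by 0.21. None reached an unadjusted p of 0.05, and 4 of the 6 lay above 0. Type IV therefore gave no call in either direction, and its median was 0.076.

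Type VI collagen forms beaded filaments around cells, nerve and muscle fibres. Of its 6 genes 5 lay below 0, with a median of -0.077. Col6a1 read 6.99, 6.99, 6.86 and 6.99 in knockout and 7.29, 7.47, 7.19 and 6.89 in control animals. Its knockout values lay close together, and control replicate 4 fell among them (difference -0.26, 95% interval -0.52 to 0.0082). The second feature of Col6a1, 17547505, read 5.51, 5.51, 5.22 and 5.56 in knockout and 5.52, 5.49, 5.28 and 5.46 in control animals and differed by 0.016 (-0.24 to 0.27). The gap between the pair changed by -0.27 (two-sided exact permutation p = 0.114, adjusted p = 0.171). Col6a2 (0.0066) and Col6a3 (-0.11), the partners of Col6a1 in the trimer, and Col6a4 (-0.17), Col6a5 (-0.00016) and Col6a6 (-0.048) had overlapping groups. For all 3 genes with a pair of features, Col1a2, Col5a1 and Col6a1, the gap between the brighter and the dimmer feature was narrower on average in knockout cochlea, and no adjusted p of the 3 was under 0.05. Over all features the median difference was -0.21 in the highest decile by mean level, which held the brighter features and the dimmer Col1a2 feature. It was 0.058 in decile 5, which held the dimmer features of Col5a1 and Col6a1. After cyclic loess the pairs stood at -0.27 and 0.095 (Col1a2), -0.060 and 0.14 (Col5a1) and -0.12 and -0.046 (Col6a1). The part of signal level in these gaps was not tested.

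Col10a1, the collagen of hypertrophic cartilage, varied most between animals. It read 6.81, 6.78, 6.57 and 6.02 in knockout and 6.38, 7.86, 6.31 and 7.17 in control animals, and its pooled within-group SD of 0.579 lay at percentile 99.7 of all features. Control replicates 2 and 4 were high and control replicates 1 and 3 low, the pair of them below all knockout animals but replicate 4. The difference was -0.38 (95% interval -1.0003 to 0.24) and was -0.072 without control replicate 2. Col8a1 and Col8a2, short-chain collagens of vessel walls and other sheets, differed by -0.13 and 0.12.

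The collagens outside fibres and networks lay between 0.00083 and 0.23. Col7a1, which anchors epithelia to the tissue below, differed by 0.038. The membrane-spanning collagens Col13a1, Col17a1, Col23a1 and Col25a1 differed by 0.083, 0.17, 0.0595 and 0.013. Col17a1 is part of the hemidesmosome of epithelial cells, and Col13a1 sits at adhesion sites and the neuromuscular junction. Col15a1 and Col18a1, the latter the source of endostatin, belong to basement membranes and differed by 0.00083 and 0.11. Col26a1 (0.12) and Col28a1 (0.23), the highest of the 44, complete the family. All 9 had overlapping groups.

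**Figure D3:**
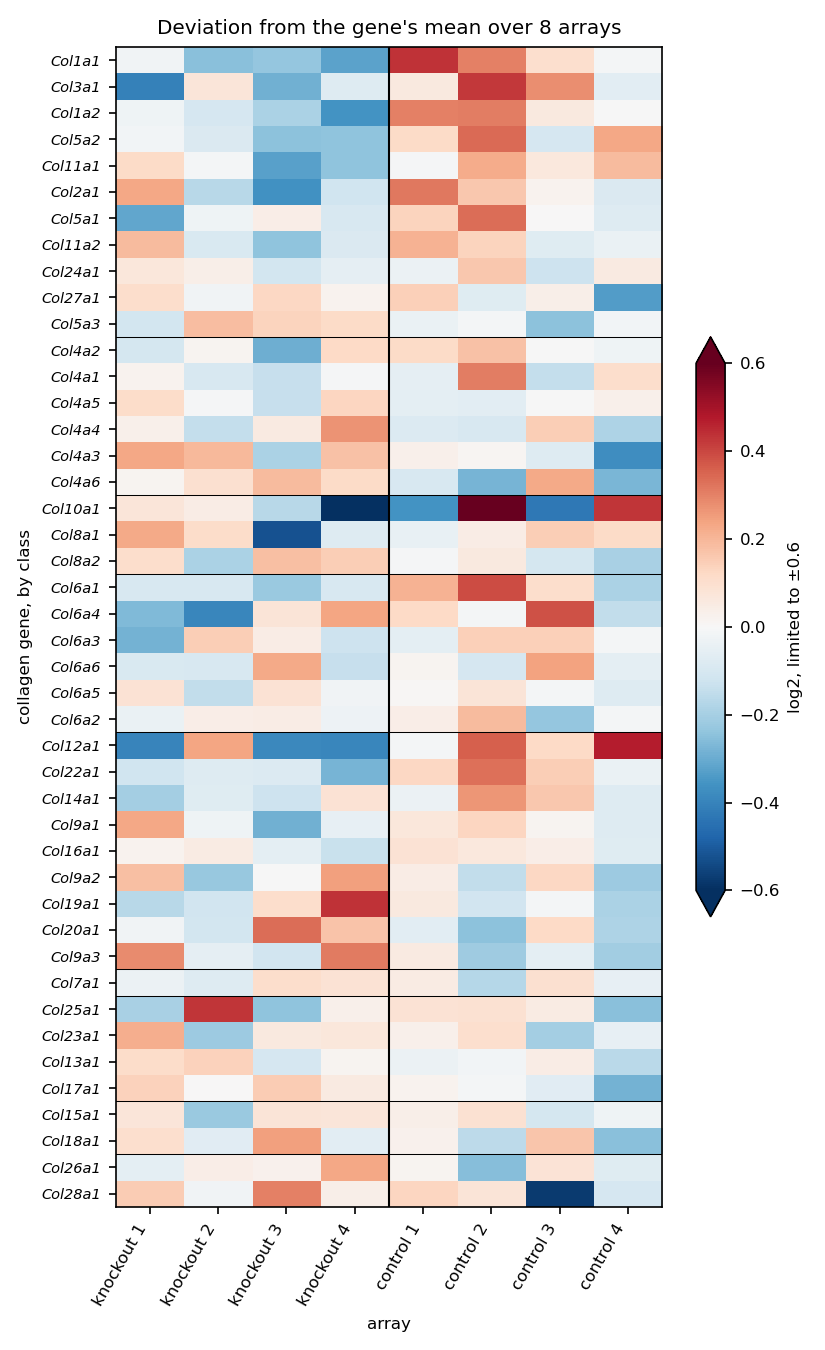
Deviation of each collagen gene on each array from that gene's mean over the 8 arrays (log2, colour scale limited to ±0.6), genes by class and, within a class, in order of their difference. Control replicate 2 held the highest value for 14 of the 44 genes, and Col10a1 has the strongest colours.

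The differences followed the signal level over the whole array, and most of the brightest collagen genes lay below 0. The median difference of all features went from 0.13 in the lowest decile by mean level to -0.21 in the highest, where 87.7% of features lay below 0. Of the 12 collagen genes in that decile 11 lay below 0, with a median of -0.25, and 5 had an unadjusted p under 0.05 in the lower direction, a share of 41.7% against 27.1% of the features of that decile. Groups did not overlap for 2 of the 12, where 7.06% of the features of the decile were lower without overlap. The 32 collagen genes below it had a median of 0.042, with 12 below 0. Values also spread less on average within a knockout array (an SD over features of 1.40 ± 0.03, n = 4) than within a control array (1.49 ± 0.06, n = 4). The groups overlapped, at 1.37 to 1.44 in knockout and 1.41 to 1.56 in control arrays. The part of this spread in the collagen values was not tested beyond the alternatives given here. Col1a1, with a mean of 11.6, lay far above most of this decile, which ran from 6.97 to 13.42. Cyclic loess changed it little, from -0.42 to -0.40. After cyclic loess the 12 genes had a median of -0.105 where all features of the decile had -0.065. At that setting Col1a1 (-0.40), Col12a1 (-0.32) and Col1a2 (-0.27) were under an unadjusted p of 0.05. With the SD of each array as a covariate, Col1a1 alone of the 6 was under that p (-0.43, limma adjusted p = 0.816). Of the others, Col3a1 stood at -0.40, Col22a1 at -0.29 and Col1a2 at -0.27, while Col12a1 stood at -0.11 and Col5a2 at -0.052.

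**Figure D4:**
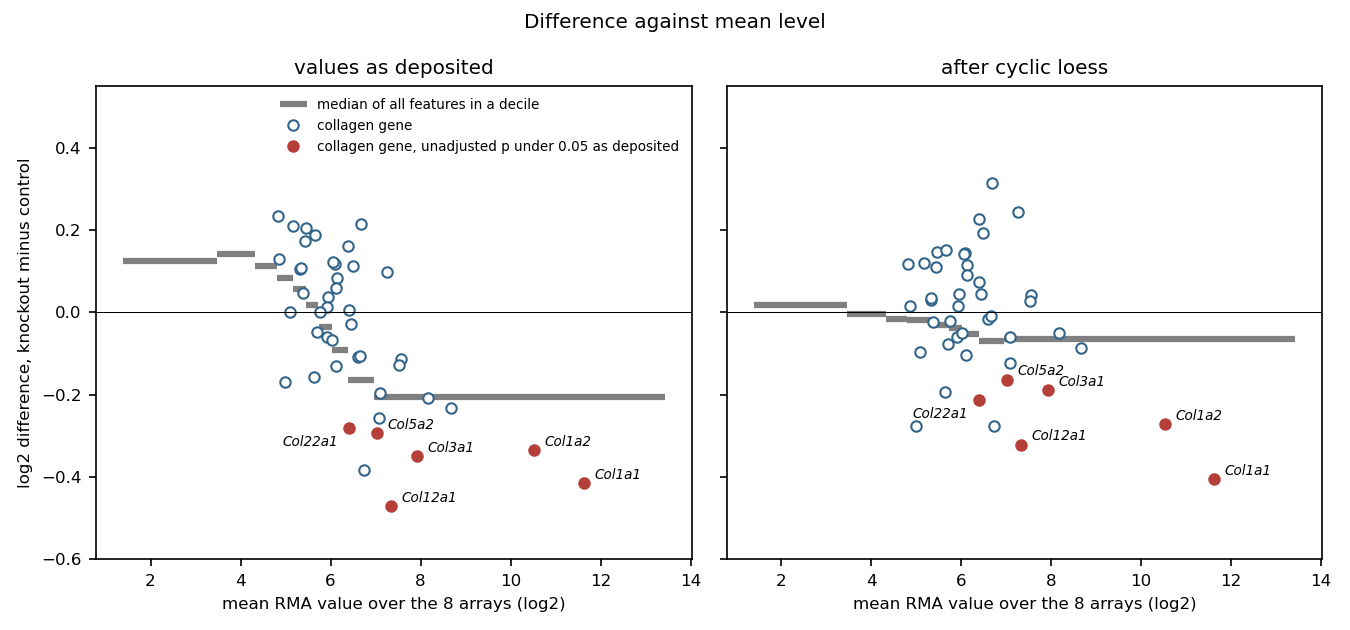
Log2 difference (knockout minus control) against the mean RMA value over the 8 arrays for the 44 collagen genes, as deposited and after cyclic loess; grey bars give the median of all features in each decile by mean level. As deposited the bars step down from 0.13 to -0.21. Col1a1, at the bright end of the widest bar, stands at -0.42 as deposited and at -0.40 after cyclic loess.

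Osteoblasts, the bone-forming cells, make much type I collagen, so their markers are given beside it. The mean of Col1a1 and Col1a2 was 10.74 to 11.05 in knockout and 11.07 to 11.44 in control animals. Osteoblast and osteocyte markers, 9 of 12 measured, all lay below 0 with a median of -0.23, none at an unadjusted p under 0.05: Ibsp (bone sialoprotein) stood at -0.24, Ifitm5 at -0.26, Mepe at -0.29 and Sp7 (osterix) at -0.23. Their mean level overlapped, at 7.73 to 8.37 in knockout and 7.93 to 8.52 in control animals. In knockout replicate 1 the marker level, 8.37, was above all controls but replicate 2, while the type I mean, 11.05, was below every control. As deposited, 7 of the 9 markers were in the highest decile by mean level, where 87.7% of all features lay below 0 (median -0.21). The rest were in decile 9, where 82.4% did (median -0.16). After cyclic loess the marker median was -0.10, and all features of the highest decile had -0.065. The part of bone content in the type I values was not tested, and in whole-tissue RNA fewer bone cells and less collagen RNA per cell cannot be told apart.

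**Figure D5:**
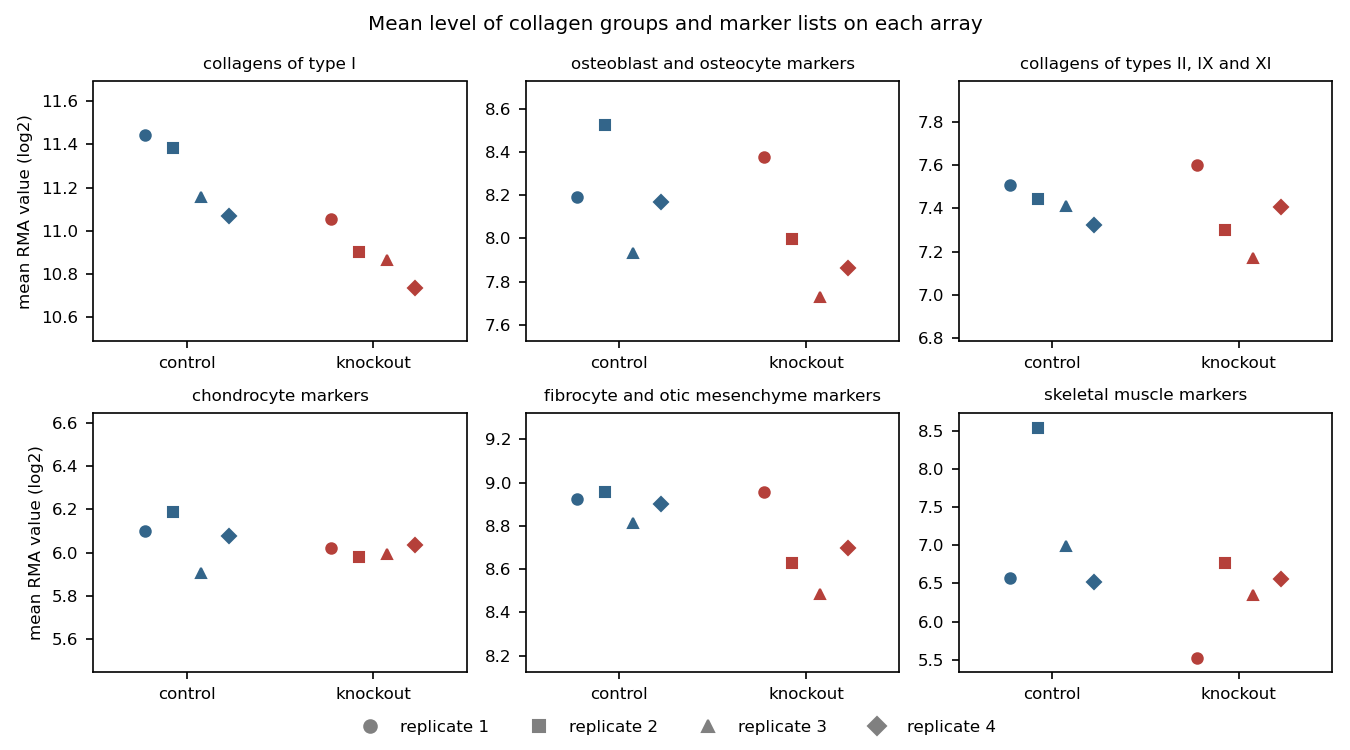
Mean RMA value (log2) of the type I and of the type II, IX and XI collagens and of 4 marker lists on each array, with 1 symbol per replicate number; the muscle panel spans a wider range than the others. Type I collagen separates the groups (10.74 to 11.05 against 11.07 to 11.44), and every other panel shows overlap.

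Fibrocytes of the spiral ligament and other mesenchyme also make collagen. Their markers, 8 of 8 measured, had a median of -0.19 and a mean level of 8.49 to 8.96 in knockout and 8.82 to 8.96 in control animals. Of these, Slc4a11 stood at -0.57 and Coch at -0.35, both at an unadjusted p under 0.05, and Otos at -0.24 and Lum at -0.24. Tectorial membrane and supporting cell markers, 10 of 10 measured, had a median of -0.15, with Fbxo2 (-0.42), Gjb6 (-0.35) and Otogl (-0.31) lower at an unadjusted p under 0.05 and Otog at -0.37. None of either list passed after adjustment. In the highest decile by mean level were 6 of the 8 fibrocyte and mesenchyme markers and 3 of the 10 others. All features of that decile had a median of -0.21, and all features tested had 0.014. After cyclic loess the median was -0.093 for the 8 markers and -0.21 for the 10. All features tested then had -0.030, and the highest decile had -0.065. Lower at an unadjusted p under 0.05 were 25% of the 8 and 30% of the 10. The share over all features was 7.25%, and in the highest decile it was 27.1%.

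The genes that make, hold and remove collagen gave no call. Of 34 listed genes of synthesis, modification and crosslinking 30 were measured, of which 27 lay below 0 and 0 passed the adjusted threshold. At an unadjusted p under 0.05 there were 7 lower (23.3% of the 30, against 7.25% of all features) and 1 higher. Of the 9 in the highest decile by mean level 4 were lower at that p, where the share over all features of the decile was 27.1%. The list's median was -0.17 as deposited and -0.11 after cyclic loess. Over all features 47.6% lay below 0, and 87.7% in the highest decile. After cyclic loess 27 of the 30 lay below 0. Of the 23521 features 13468 did, with a median of -0.030. Plod1, a lysyl hydroxylase, stood at -0.42, Crtap, a partner of prolyl 3-hydroxylase, at -0.47, and Bmp1, which removes the carboxy-terminal propeptide, at -0.28. Tll2, a relative of Bmp1, stood at 0.36. Groups did not overlap for Bmp1, lower in knockout cochlea, and for Tll2, higher, which is 6.67% of the 30 against 5.96% of all features.

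Of the 10 collagen receptors measured, from 11 listed, 9 lay below 0 (median -0.18). Ddr2 (-0.33) and Ddr1 (-0.26), receptor kinases for fibrillar collagen, had an unadjusted p under 0.05, and the integrin chains Itga2 and Itga11 stood at -0.19 and -0.17. Of the 13 genes of collagen breakdown, all measured, 9 lay below 0 (median -0.14), with Mmp2 (-0.37) and Mmp13 (-0.47), a collagenase of bone and cartilage, at an unadjusted p under 0.05, and Fap (-0.34) and Mmp14 (-0.25) above it. None of these passed after adjustment. The highest decile by mean level held 3 of the 10 receptors and 9 of the 13 breakdown genes. Over all features 47.6% lay below 0, and 87.7% in that decile. At an unadjusted p under 0.05, 7.25% of all features and 27.1% of that decile were lower. After cyclic loess 8 of the 10 receptors (median -0.11) and 7 of the 13 breakdown genes (median -0.011) lay below 0.

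Of the 17 proteoglycans and glycoproteins bound to fibrils, all measured, 14 lay below 0 (median -0.17). The highest decile by mean level held 13 of the 17. Of all features of that decile 87.7% lay below 0 (median -0.21), and 27.1% were lower at an unadjusted p under 0.05. Fibronectin (Fn1, -0.46) and biglycan (Bgn, -0.38) had an unadjusted p under 0.05, fibromodulin (Fmod) stood at -0.24 and Tnxb at 0.24. Of the 12 regulators of collagen genes measured, from 13 listed, 10 lay below 0 (median -0.20), with Smad3 (-0.30), which carries the TGF-beta signal, and Trps1 (-0.37) at an unadjusted p under 0.05, and Sox6 (-0.26) and Tgfb3 (-0.22) above it. None passed after adjustment. The highest decile held 3 of the 12 regulators. Over all features 47.6% lay below 0 and 7.25% were lower at an unadjusted p under 0.05. After cyclic loess 12 of the 17 fibril-bound genes (median -0.099) and 8 of the 12 regulators (median -0.10) lay below 0.

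Promoters were read for the genes at an unadjusted p under 0.05 from the RefSeq promoter table (GRCm38.p6), to show what their starts share. It matched 35 of the 44 genes, not Col1a1, Col2a1, Col4a3, Col5a2, Col9a3, Col12a1, Col14a1, Col22a1 or Col26a1. Of the 6 genes it therefore gave Col1a2 and Col3a1. Each window runs from 250 bases before to 50 bases after the start of the gene, and capitals mark matches on either strand to CCAAT, the box bound by NF-Y, to TATAAA, and to GGGCGG, a GC box bound by Sp1.
Col1a2, chr6:4505368-4505667, plus strand: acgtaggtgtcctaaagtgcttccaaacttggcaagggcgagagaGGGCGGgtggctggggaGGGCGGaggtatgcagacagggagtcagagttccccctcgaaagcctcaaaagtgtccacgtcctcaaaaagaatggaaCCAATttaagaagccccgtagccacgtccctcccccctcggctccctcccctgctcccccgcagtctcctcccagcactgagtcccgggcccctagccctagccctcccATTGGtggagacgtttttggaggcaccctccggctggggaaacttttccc
Col3a1, chr1:45311288-45311587, plus strand: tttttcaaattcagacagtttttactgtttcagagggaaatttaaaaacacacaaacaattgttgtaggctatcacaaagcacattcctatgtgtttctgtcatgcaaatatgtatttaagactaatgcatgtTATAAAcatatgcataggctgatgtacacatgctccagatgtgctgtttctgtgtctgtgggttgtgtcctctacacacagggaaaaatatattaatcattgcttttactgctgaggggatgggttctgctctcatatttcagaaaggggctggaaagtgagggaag
In the Col1a2 window CCAAT matched 2 times, at positions 142 (plus strand) and 251 (minus strand) from the 5′ end, and GGGCGG matched 2 times. The Col3a1 window held 1 match, to TATAAA, and neither of the other motifs. No matches overlapped. Over the 35 genes, CCAAT was found for 13, TATAAA for 5 and GGGCGG for 22, or 37.1%, 14.3% and 62.9%. Over all genes of the table the shares were 41.1%, 15.7% and 38.2%. Over all 32851 windows they were 37.4%, 13.6% and 35.7%. A match describes these letters only.

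Col4a1 and Col4a2 are shown because they start back to back and differed by like amounts, -0.11 and -0.13. Their windows lie on opposite strands and share 78 bases, in capitals, and the starts are 21 bases apart.
Col4a1, chr8:11312777-11313076, minus strand: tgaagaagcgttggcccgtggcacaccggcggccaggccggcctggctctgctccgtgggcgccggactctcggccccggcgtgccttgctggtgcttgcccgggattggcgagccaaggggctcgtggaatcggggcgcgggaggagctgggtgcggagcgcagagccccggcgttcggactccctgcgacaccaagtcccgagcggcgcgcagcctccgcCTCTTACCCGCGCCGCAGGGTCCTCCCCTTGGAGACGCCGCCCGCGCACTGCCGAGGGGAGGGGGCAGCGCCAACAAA
Col4a2, chr8:11312555-11312854, plus strand: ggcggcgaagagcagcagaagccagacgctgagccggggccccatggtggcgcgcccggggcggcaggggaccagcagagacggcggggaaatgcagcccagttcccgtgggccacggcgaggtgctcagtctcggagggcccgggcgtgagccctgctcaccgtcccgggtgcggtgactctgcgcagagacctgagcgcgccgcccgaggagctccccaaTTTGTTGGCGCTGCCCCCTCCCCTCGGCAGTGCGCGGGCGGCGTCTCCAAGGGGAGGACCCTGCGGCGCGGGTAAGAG
On the arrays Col4a1 read 6.63, 6.51, 6.47 and 6.60 in knockout and 6.55, 6.91, 6.46 and 6.71 in control animals. Col4a2 read 6.01, 6.13, 5.82 and 6.23 in knockout and 6.23, 6.29, 6.11 and 6.09 in control animals. Both had overlapping groups, and both were highest in control replicate 2 and lowest in replicate 3 of one group, the control for Col4a1 and the knockout for Col4a2. Besides the type IV pairs, the neighbouring collagen genes in the RefSeq table were Col3a1 with Col5a2, Col9a1 with Col19a1, Col6a1 with Col6a2, and Col6a4 with Col6a5 and Col6a6. Only Col3a1 and Col5a2 were both under an unadjusted p of 0.05.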

How the data were processed

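Whole cochleae of 4 knockout and 4 control mice at postnatal day 16 were measured on Affymetrix Mouse Gene 2.0 ST arrays, 1 array per animal. The authors deposited gene-level RMA values, computed in Affymetrix Expression Console per the submitters' processing notes, and their range shows a log2 scale. Software version, annotation release and genome build of the array, not given in the sources used here, stay unknown. No scan date or detection call was used, so dim features could not be set apart from background. The number of arrays limits the precision.

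Of 41345 features, 23521 had exactly 1 symbol and were tested with limma 3.58.1 in R 4.3.3 (lmFit, then eBayes with an intensity trend, genotype as the only term), with Benjamini-Hochberg adjustment over all of them and a threshold of 0.05. The limma p-values set the difference between genotypes against the spread between animals within groups, moderated over all features. Gaps between features of 1 gene were compared by two-sided exact permutation tests over samples. The fit was tested on simulated data with independent noise and changes of known size. That simulation held no trend with signal level, so it does not cover the trend seen in these data. All 44 members are given, with values per array for Col1a1, Col1a2, Col2a1, Col9a1, Col11a2, members at an unadjusted p under 0.05 and genes with several features, and up to 4 genes of every other list by smallest p. Members given per array beyond these (Col9a3, Col10a1, Col11a1, Col4a1 and Col4a2) were chosen after their values were seen. The hair cell list is an exception, with all 8 genes named. The members and lists were chosen with earlier results of these data known. Alternatives tried were a block for the replicate number, eBayes without trend or with robust variance, median-centring, cyclic loess, the SD of each array as a covariate, array weights, a minimum mean of 5, all features, averaged features, and each array left out.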

Additional observations from a re-analysis of the deposited data

Results flagged for a closer look

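Among 94 groups of 4 values (47 features in each genotype), 8 had 1 animal far from the other 3, by Dixon's ratio of that gap to the whole range at its 95% critical value, and chance gives about 1 in 20. Col4a3 read 5.28 in knockout replicate 3, below 5.64 to 5.70 in the other 3. Col6a1 read 6.86 in knockout replicate 3, below 6.99 in the other 3. Col25a1 read 5.67 in control replicate 4, below 5.97 to 6.02 in the other 3. Col15a1 read 5.54 in knockout replicate 2, below 5.83 to 5.84 in the other 3. Col5a3 read 6.15 in control replicate 3, below 6.35 to 6.38 in the other 3. Col12a1 read 7.57 in knockout replicate 2, above 6.94 to 6.95 in the other 3. Col6a6 read 5.93 in knockout replicate 3, above 5.57 to 5.61 in the other 3. Col6a1 (second feature) read 5.22 in knockout replicate 3, below 5.51 to 5.56 in the other 3. Knockout replicate 3 accounted for 4 of the 8, and both features of Col6a1 were among them.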

How the results depend on the processing

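No collagen gene passed an adjusted p of 0.05 under any alternative run, and the 6 genes at an unadjusted p under 0.05 were below 0 in all 90 of their refits. All 6 stayed under 0.05 with the replicate block, without trend, with robust variance, after median-centring and with array weights, 3 of them after cyclic loess and 1 with the covariate. The count of collagen genes under 0.05 was 3 to 7 with 1 array left out, with 3 when knockout replicate 4 or control replicate 2 was the one. The share over all features ran from 8.09% to 23.4%, and was 8.996% and 8.60% in those refits. The count of features called over all genes was 3 with the replicate block, 8 with array weights, 1 with the covariate, 1 over all features of the table, and 1 to 21 with 1 array left out, 21 without control replicate 3. The labels do not say that numbers pair animals, and same-numbered deviations correlated at -0.29 to 0.21, so the block (3656 features at an unadjusted p under 0.05 against 3361) rests on a number only. The collagen median moved to -0.076 with the covariate. Signs turned, among genes that were not called, as follows. With the covariate they turned for Col10a1 (0.40), Col15a1 (-0.017), Col18a1 (-0.14), Col19a1 (-0.087), Col20a1 (-0.077), Col24a1 (0.11), Col26a1 (-0.038), Col27a1 (-0.082), Col4a1 (0.051), Col4a4 (-0.16), Col4a6 (-0.077), Col7a1 (-0.11), Col9a2 (-0.20), Crtap (0.058), Fn1 (0.038), Ifitm5 (0.039), Itga2 (0.022), Kdr (0.16), Mepe (0.036), Ocm (0.069), Rgs5 (0.066), Sox6 (0.099), Tgfb3 (0.00903) and Tnxb (-0.018). After cyclic loess they turned for Col11a2 (0.043), Col15a1 (-0.021), Col24a1 (0.045), Col4a5 (-0.023) and Col8a1 (0.027), after median-centring for Col15a1 (-0.031), Col25a1 (-0.019) and Col6a2 (-0.025), and with array weights for Col25a1 (-0.062), Col6a2 (-0.035) and Col6a5 (0.012). With 1 array left out the range held both signs for Col15a1 (-0.034 to 0.075), Col23a1 (-0.0025 to 0.14), Col24a1 (-0.075 to 0.0202), Col25a1 (-0.13 to 0.095), Col6a2 (-0.069 to 0.071), Col6a5 (-0.029 to 0.0497), Col6a6 (-0.13 to 0.024), Col7a1 (-0.012 to 0.077), Col8a1 (-0.23 to 0.023), Col9a1 (-0.16 to 0.018) and Ocm (-0.31 to 0.017). The causes were not tested.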

Other observations

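Other cell types of the cochlea were listed beside the family. Endothelial and pericyte markers, 9 of 9 measured, had a median of -0.13 and none at an unadjusted p under 0.05, with Pdgfrb at -0.26, Rgs5 at -0.26, Kdr at -0.17 and Cspg4 at -0.13. Schwann cell and myelin markers, 5 of 8 measured, had a median of -0.25, with Mal at -0.57, Mag at -0.35, Mbp at -0.25 and Pmp22 at -0.22. Hair cell markers, 8 of 8 measured, had a median of -0.063, with 5 below 0 and 3 above. The 3 above were Gfi1 (0.062), Myo7a (0.038) and Slc26a5 (0.024), and Otof stood at -0.032. The calretinin gene Calb2 fell by 1.60 on the log2 scale (limma adjusted p = 0.000752; adjusted p = 0.0506 with the array SD as a covariate), and Myo6 stood at -0.53, Pou4f3 at -0.095 and Ocm at -0.14. Neuron markers, 8 of 8 measured, had a median of -0.62. Snap25 fell by 1.09 (limma adjusted p = 0.0389), with an adjusted p of 0.0158 to 0.183 when 1 array was left out, 0.240 with the replicate block and 0.171 after cyclic loess. Among the other neuron genes, Calb1 stood at -1.08, Nefl at -0.91 and Nefm at -0.73.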
